A study of Mus musculus with 2 samples.

Results

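The genes described here are 5 genes of the complement system and its control, chosen by symbol among the 32285 genes of the count tables: Serping1, which encodes C1 inhibitor, the complement components C3 and C4b, and the surface regulators Cd55 and Cd59a. The choice rested partly on values of these data, since it was noted that Serping1 had opposite differences between the libraries in the 2 classes of endothelial cells. The levels below are therefore a description, and no test was made. The genes came from single-cell 3′ RNA sequencing of skin tumors grown from B16F10-OVALBUMIN/VEGFC cells, a mouse melanoma line carrying ovalbumin and VEGF-C. On day 15 after intradermal implantation of the cells (500K), 3 tumors per genotype were pooled, sorted for DAPI-, CD31+, CD45- cells and made into 1 library. The hosts were Ifngr1iProx1 (Cre plus) and Ifngr1WT (Cre minus) mice, so that all animals of both groups carried the same tumor line. Prox1 is the transcription factor that defines lymphatic endothelium, and the product of Ifngr1 binds interferon-gamma. The labels name Prox1 only within the genotype, and the deleted part of Ifngr1, the agent that starts deletion, and the age and sex of the mice are not given in the sources used here. The tumor cells are the implanted line and do not carry the hosts' alleles.

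Complement is a cascade of plasma proteases and adaptor proteins that ends in opsonisation, inflammation and membrane attack. The classical pathway starts when C1 binds antibody or another surface ligand and cuts C4 and C2. C1 inhibitor is a serpin that blocks the C1r and C1s proteases, and it also inhibits factor XII and plasma kallikrein, so that its lack causes bradykinin-driven swelling. C3 is the protein on which all pathways converge. CD55 dissociates the convertases that cut C3, and CD59 blocks the last step, insertion of C9, so both protect the cell that carries them. Serping1, C4b and Cfb, the gene of factor B of the alternative pathway, are known to respond to interferon-gamma in many cell types.

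On mm10, with the GENCODE M21 annotation, Serping1 (ENSMUSG00000023224) lies on chromosome 2 from 84765387 to 84775444 on the minus strand. C3 (ENSMUSG00000024164) lies on chromosome 17 from 57203970 to 57228136 and C4b (ENSMUSG00000073418) on chromosome 17 from 34728380 to 34743882, both on the minus strand. Cd55 (ENSMUSG00000026399) lies on chromosome 1 from 130439027 to 130462744 on the minus strand, and Cd59a (ENSMUSG00000032679) on chromosome 2 from 104095801 to 104115354 on the plus strand. All 5 are protein-coding genes. Of the 50-base words in the last 500 bases of C4b, 172 of 451 (38.1%) also occur in its near copy C4a, so reads of these genes can be hard to assign, and C4b is uncertain to that extent. The tables gave C4b 2425 UMIs (unique molecules counted) and C4a 18. None of 451 such words of Cd55 occurs in Cd55b, and none of 451 of Cd59a in Cd59b. Gm16083 overlaps Cd55 on the other strand.

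The windows upstream of the surface regulators are shown because Cd59a and Cd55 are the genes with a window in the table that endothelial barcodes carried in number. RefSeq's table of GRCm38.p6 matched 3 of the 5 genes (Cd55, Cd59a and C3) and holds no entry used here for Serping1 or C4b. Each window is the 250 bases before the annotated start, read 5′ to 3′ on the gene's strand. Capitals mark a match to the core of the interferon-stimulated response element, GAAA, any 2 bases, then GAAA again.
Cd59a, chr2:104095551-104095800, plus strand: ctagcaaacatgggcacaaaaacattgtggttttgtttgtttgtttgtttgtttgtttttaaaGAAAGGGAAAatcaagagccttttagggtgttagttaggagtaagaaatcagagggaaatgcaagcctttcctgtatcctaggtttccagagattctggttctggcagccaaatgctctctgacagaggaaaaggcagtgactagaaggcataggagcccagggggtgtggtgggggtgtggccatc
Cd55, chr1:130462745-130462994, minus strand: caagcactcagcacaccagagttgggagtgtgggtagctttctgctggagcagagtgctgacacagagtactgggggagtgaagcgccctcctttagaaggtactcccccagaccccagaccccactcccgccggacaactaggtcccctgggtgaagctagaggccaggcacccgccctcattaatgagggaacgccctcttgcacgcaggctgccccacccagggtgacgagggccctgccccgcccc
The Cd59a window has the match GAAAGGGAAA starting 187 bases before the start. Both strands were searched, and the Cd55 and C3 windows hold no match. Of 32851 windows of this length, 2.98% hold the GAAA repeat, and a match of letters is not a binding site.

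Before the genes, the libraries. Cre plus had 2491 barcodes and 66704257 UMIs, Cre minus 2502 and 76967583, and 1782 and 1552 barcodes passed the filters of at least 500 genes and under 10% mitochondrial UMIs. They shared 1 cell barcode. Classes were named from clusters by fixed markers. The lymphatic endothelial (LEC)-like class held 900 barcodes in Cre plus against 276 in Cre minus, and its summed LEC markers were 7557 and 7623 CPM (UMIs scaled to a class total of 1000000) against 214.5 and 207 in blood endothelial (BEC)-like barcodes. The BEC-like class held 218 and 252 barcodes, melanoma-like 500 and 807, macrophage and monocyte-like 59 and 84, and stromal-like (pericyte and fibroblast markers) 32 and 21, although the sort was for CD31+, CD45- cells. LEC-like depth differed, with a median of 11580.5 UMIs per barcode in Cre plus against 5157 in Cre minus. Barcodes were called Malat1-rich where Malat1, a nuclear RNA that intact cells hold in large amounts, made up at least 0.1% of UMIs. These were 49.8% and 16.3% of LEC-like and 69.7% and 56.3% of BEC-like barcodes. The largest LEC-like cluster differed between the libraries, as cluster 1 (Malat1-rich) held 406 and 32 barcodes and cluster 0 (Malat1-poor) 356 and 190. Ifngr1 itself had 503 and 101 UMIs in LEC-like barcodes, 28.8 and 42.6 CPM, a log2 ratio of Cre plus over Cre minus of -0.56 (95% interval -0.87 to -0.24). In BEC-like barcodes it was 178 and 150 CPM, a ratio of 0.25 (0.09 to 0.42). A 3′ tag may lie outside the deleted part, so these values do not check the deletion.

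All intervals are 95% intervals. Those of levels and ratios are exact on UMI counts, and those of shares are exact on barcode counts. Those of differences between classes combine the intervals of the ratios. Intervals on UMI counts treat UMIs as independent, so they leave out the spread between barcodes of a library. All intervals cover counting error only, not the spread between animals, tumors or sorts, which 1 library per genotype cannot show.

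Serping1 was lower in Cre plus LEC-like barcodes and higher in Cre plus BEC-like barcodes than in the same class of Cre minus. In LEC-like barcodes it had 107 UMIs (6.14 CPM) in Cre plus against 63 UMIs (26.6 CPM) in Cre minus. That is a 4.33-fold lower level in Cre plus, with a log2 ratio of -2.11 (-2.58 to -1.64). In BEC-like barcodes the counts were 113 UMIs (25.3 CPM) in Cre plus against 12 UMIs (3.70 CPM) in Cre minus, 6.84-fold higher in Cre plus, with a log2 ratio of 2.77 (1.91 to 3.77). The log2 ratio in LEC-like minus that in BEC-like barcodes was -4.89 (-5.98 to -3.91). The Cre plus BEC-like level thus lay beside the Cre minus LEC-like level, and their intervals (20.9 to 30.4 and 20.4 to 34.0 CPM) overlapped.

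Against all genes with at least 50 UMIs in the class, 0.928% were at least 2-fold lower in Cre plus LEC-like barcodes and 7.18% at least 2-fold higher. In BEC-like barcodes 0.772% were at least 2-fold lower and 2.13% higher. Both differences together, lower in LEC-like and higher in BEC-like, were found in 0.161% of genes, 15 of 9312. These 15 were Serping1, Cfb, Gbp2, Gbp4, Gbp5, Gbp6, Cxcl9, Cxcl10, Cd74, H2-Eb1, Serpina3f, Serpina3g, Mgst1, Ndufa4l2 and Xdh. The Gbp genes encode interferon-induced GTPases, Cxcl9 and Cxcl10 are chemokines of the interferon response, and Cd74 and H2-Eb1 belong to class II antigen presentation. As Serping1 was chosen for this pattern, its place among them supports nothing. For Gbp2 the LEC-like levels were 33.6 CPM in Cre plus against 162 in Cre minus, and the BEC-like levels 117 and 37.0.

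Serping1 UMIs were concentrated in few barcodes. In LEC-like barcodes 60 of 900 (6.67%, 5.13 to 8.50) in Cre plus and 28 of 276 (10.1%, 6.85 to 14.3) in Cre minus had at least 1 Serping1 UMI. In BEC-like barcodes 27 of 218 (12.4%, 8.32 to 17.5) and 7 of 252 (2.78%, 1.12 to 5.64) did. The highest counts in single BEC-like barcodes of Cre plus were 28, 22 and 12, which is 54.9% of the class's Serping1 UMIs, and the highest in Cre minus was 3. Among LEC-like barcodes the highest counts were 10, 9 and 8 in Cre plus against 11, 6 and 5 in Cre minus, so the single barcodes overlapped between the libraries. Without the 3 highest barcodes of each class and library, an alternative chosen after seeing the data, the ratios were -1.94 (-2.50 to -1.36) in LEC-like and 2.81 (1.495 to 4.49) in BEC-like barcodes. With every barcode thinned to 2000 UMIs, 7 of 807 (0.867%, 0.35 to 1.78) and 8 of 259 (3.09%, 1.34 to 5.995) LEC-like barcodes carried Serping1. The thinned BEC-like shares were 3.23% (1.19 to 6.89) and 0.830% (0.10 to 2.97). The thinned intervals of the libraries overlap in both classes, and the unthinned LEC-like intervals overlap as well. Melanoma-like barcodes, which served as the class with least Serping1, had a UMI in 2.60% in Cre plus and 0.991% in Cre minus at median depths of 18313 and 16702 UMIs. The Cre minus BEC-like share of 2.78% came at a median of 9263 UMIs. Its level of 3.70 CPM (1.91 to 6.47) lay above the melanoma-like 0.408 CPM (0.23 to 0.67) and 0.275 CPM (0.16 to 0.45), so the share alone does not place it with them.

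**Figure D1:**
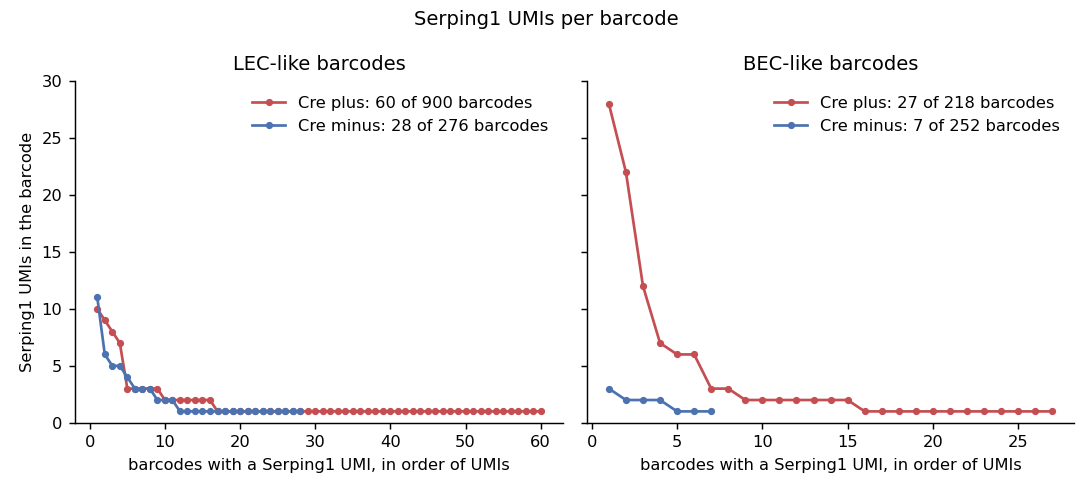
Serping1 UMIs in each barcode that had at least 1, ordered from the highest, for LEC-like (left) and BEC-like (right) barcodes of both libraries. The Cre plus BEC-like curve starts at 28 UMIs and the Cre minus curve at 3, while the LEC-like curves start at 10 and 11.

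The ratio was similar within the largest parts of the LEC-like class. In cluster 0 Serping1 was 5.27 CPM (Cre plus) and 29.3 CPM (Cre minus), and in cluster 1 it was 6.84 and 36.0. The other LEC-like clusters held too few UMIs to show a ratio, 0 and 1 in cluster 8, 0 and 0 in cluster 17, and 3 and 0 in cluster 19. Among Malat1-rich barcodes the log2 ratio was -2.26 (-2.88 to -1.59) in LEC-like and 2.81 (1.88 to 3.91) in BEC-like barcodes. Among Malat1-poor barcodes it was -2.66 (-3.74 to -1.68) in LEC-like barcodes. The Malat1-poor BEC-like barcodes held only 2 UMIs in each library, a ratio of 0.99 (-2.80 to 4.77), so the BEC-like difference was not detectable there. The median gene with at least 200 UMIs had a log2 ratio of 0.27 in LEC-like barcodes, and relative to it Serping1 was at -2.39.

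Summed markers of other cells also differed between the libraries in these classes, though some of these markers are not particular to those cells. In BEC-like barcodes the melanoma markers summed to 44.1 CPM (Cre plus) and 374 CPM (Cre minus), with 7 of 7 lower in Cre plus. The pericyte and smooth muscle markers summed to 410 CPM and 85.4 CPM there, with 6 of 6 higher in Cre plus and Pdgfrb at 0 in Cre minus. The fibroblast markers summed to 72.5 and 1.54 CPM there, with Dcn, Lum and Pdgfra at 0 in both libraries. A single Cre plus barcode of 326715 UMIs held 1275 pericyte and 321 fibroblast marker UMIs, so these BEC-like sums rest largely on it. In LEC-like barcodes the pericyte markers were 210 and 131 CPM, with 5 of 6 higher in Cre plus, and the fibroblast markers 4.82 and 5.91. Pdgfrb was at 0 there in both libraries, and Rgs5, Notch3 and Tagln were at 0 in Cre minus. The Cre minus pericyte sum thus came from Acta2 and Kcnj8 only, and it is not read as RNA of pericytes. The macrophage and monocyte markers were 569 and 513 CPM in LEC-like barcodes, of which Mrc1 alone made 505 and 427 CPM. In that class 2 of 9 were higher and 7 lower in Cre plus, with Lyz2 at 1.78 and 24.0 CPM and Adgre1 at 0 in Cre plus. In BEC-like barcodes they were 36.7 and 27.5 CPM, and Adgre1 was at 0 in both libraries. Stromal-like barcodes had the highest Serping1, so these markers were set beside it. Without barcodes that held at least 2 UMIs of macrophage, T and NK, pericyte or fibroblast markers, the ratio was 3.83 (2.65 to 5.31) in BEC-like and -1.07 (-2.03 to -0.13) in LEC-like barcodes. The BEC-like difference was thus as large without them, and the LEC-like difference smaller but in the same direction. Melanoma markers are not counted in this rule, and the melanoma-like class had the lowest Serping1 of all. The rule left 290 of 900 and 152 of 276 LEC-like barcodes, in part because it counts Mrc1, which lymphatic endothelium itself expresses. With Mrc1 not counted, an alternative chosen after seeing the data, 429 and 195 barcodes were left, and the LEC-like ratio was -2.04.

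**Figure D2:**
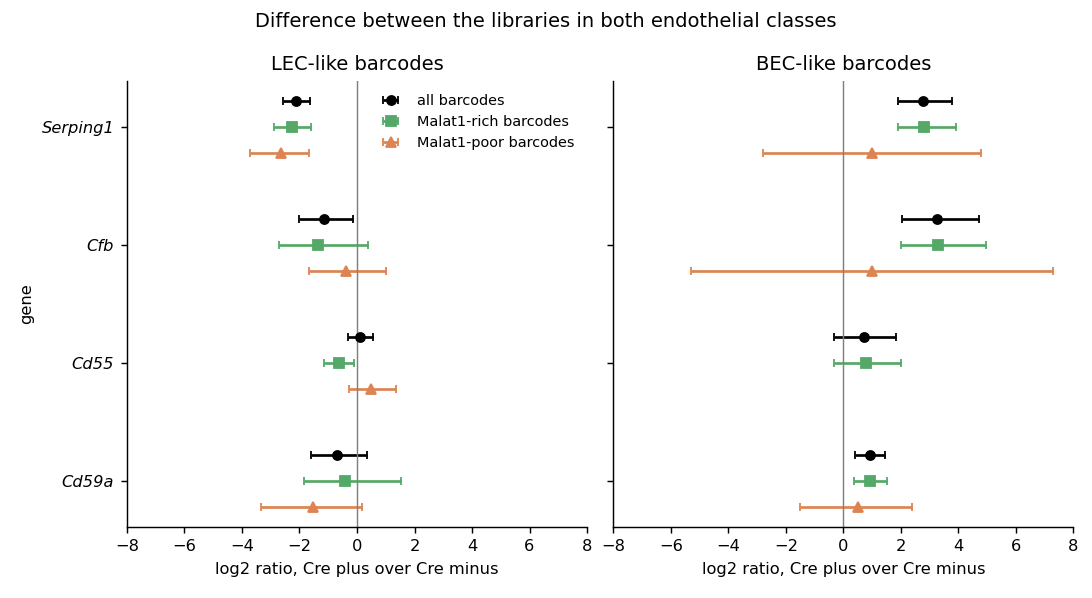
Log2 ratio of Cre plus over Cre minus (x axis, with exact 95% counting intervals) of Serping1, Cfb, Cd55 and Cd59a in LEC-like (left) and BEC-like (right) barcodes, for all barcodes and for the Malat1-rich and Malat1-poor ones. Serping1 sits at -2.11 on the left and 2.77 on the right, and only its Malat1-poor BEC-like interval crosses 0; Cd55 has no Malat1-poor BEC-like point because Cre plus held no UMI.

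Across the classes, Serping1 was highest in stromal-like barcodes, with 182 UMIs (128 CPM) in Cre plus against 118 UMIs (219 CPM) in Cre minus. There 26 of 32 (81.3%) and 17 of 21 (81.0%) barcodes carried it, and the log2 ratio was -0.78 (-1.12 to -0.43). The 3 highest barcodes (34, 23 and 16 UMIs) made up 61.9% of the Cre minus count. Those of Cre plus (19, 18 and 14) made up 28.0%. Median depth was 17962 UMIs per barcode for Cre minus and 42565 for Cre plus. The ratio without these barcodes was not computed, so it is not read as a difference of the whole class. In macrophage and monocyte-like barcodes Serping1 had 50 UMIs (23.7 CPM) in Cre plus against 11 UMIs (4.12 CPM) in Cre minus. All 50 lay in 1 barcode, which held 471 macrophage marker and 33 fibroblast marker UMIs, so no difference between the libraries is read from this class. Melanoma-like barcodes had 15 and 16 UMIs, 0.408 and 0.275 CPM. In the order of levels, the Cre minus stromal-like level stood above the Cre plus stromal-like level without overlap of their intervals. These intervals cover counting error only, and the Cre minus level rests largely on its 3 highest barcodes. Next came Cre minus LEC-like and Cre plus BEC-like barcodes and the single macrophage-like barcode of Cre plus, whose intervals overlap, then Cre plus LEC-like, Cre minus macrophage-like and Cre minus BEC-like, whose intervals overlap as neighbours, and last both melanoma-like levels.

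**Figure D3:**
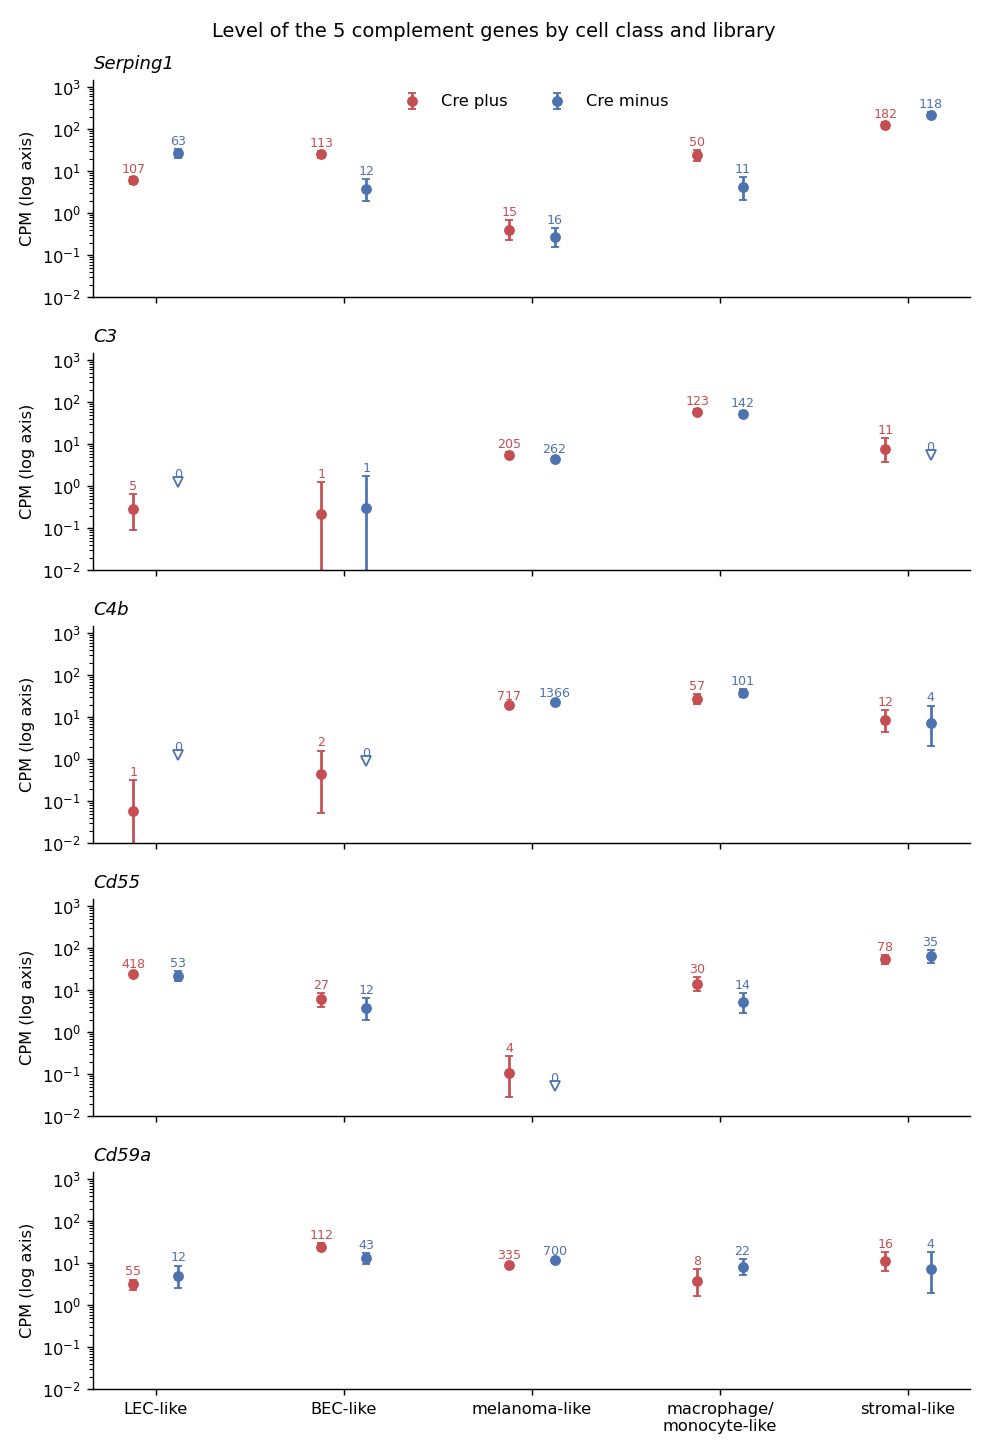
Level of each gene in CPM (log axis) in the 5 cell classes, for Cre plus (red) and Cre minus (blue), with exact Poisson 95% intervals. The number beside each point is its summed UMIs, and an open triangle marks the limit of 3 counts where no UMI was counted. The Cre plus point of Serping1 lies below the Cre minus point in LEC-like barcodes (6.14 and 26.6 CPM) and above it in BEC-like barcodes (25.3 and 3.70 CPM), with intervals apart in both.

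C3 was nearly missing from endothelial barcodes. It had 5 UMIs in Cre plus against 0 in Cre minus in LEC-like barcodes, and 1 and 1 in BEC-like barcodes. The 0 of 276 LEC-like barcodes in Cre minus allow a share of up to 1.09% of barcodes with a UMI, by the same limit of 3 counts as in the plot of levels. Its highest level was in macrophage and monocyte-like barcodes, with 123 UMIs (58.2 CPM) in Cre plus against 142 (53.2 CPM) in Cre minus. The log2 ratio there was 0.13 (-0.23 to 0.49), and 42.4% and 39.3% of barcodes carried it. Melanoma-like barcodes had 205 UMIs (5.57 CPM) and 262 UMIs (4.50 CPM), a ratio of 0.31 (0.04 to 0.58). Within them cluster 3 (19.7 and 17.9 CPM) and cluster 10 (13.5 and 10.8 CPM) had more than cluster 4 (3.28 and 2.91 CPM) in both libraries. Stromal-like barcodes held 11 and 0 UMIs, 9 of the 11 in 1 barcode. In the order of levels the macrophage-like intervals overlap each other and lie above all others, the Cre plus stromal-like and the melanoma-like intervals overlap as neighbours. The endothelial levels and the Cre minus stromal-like level of 0 UMIs come last.

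C4b, the classical pathway component cut by C1s, was carried by melanoma-like and macrophage-like barcodes. Melanoma-like barcodes had 717 UMIs (19.5 CPM) in Cre plus against 1366 UMIs (23.5 CPM) in Cre minus, a log2 ratio of -0.27 (-0.40 to -0.14), and 29.8% and 30.4% of barcodes had a UMI. In macrophage and monocyte-like barcodes there were 57 UMIs (27.0 CPM) and 101 UMIs (37.8 CPM), a ratio of -0.49 (-0.98 to -0.01). The highest single barcode held 40 of the 57 in Cre plus, and the highest 2 held 29 and 27 of the 101 in Cre minus, so both levels rest on few barcodes. LEC-like barcodes had 1 and 0 UMIs and BEC-like barcodes 2 and 0. With a floor of 3 counts per library, the Cre minus count of 0 allows up to 1.27 CPM for LEC-like barcodes and up to 0.925 CPM for BEC-like ones, so a difference in the endothelial classes was not detectable at this depth. Stromal-like barcodes had 12 and 4 UMIs, in 1 barcode of each library. Of the neighbours in the order of levels, the Cre plus macrophage-like interval (20.4 to 34.9 CPM) overlaps both its Cre minus counterpart and the Cre minus melanoma-like one (22.2 to 24.7), and the Cre plus melanoma-like interval (18.1 to 20.97) lies below the latter.

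Cd55, the regulator that dissociates C3 convertases, was higher in LEC-like than in BEC-like barcodes of both libraries and did not differ between the libraries in LEC-like barcodes beyond counting error. LEC-like barcodes had 418 UMIs (24.0 CPM, 21.7 to 26.4) in Cre plus against 53 UMIs (22.4 CPM, 16.8 to 29.2) in Cre minus, a log2 ratio of 0.10 (-0.31 to 0.54). The share of barcodes with a UMI was 25.6% and 10.5%, and 4.34% and 3.47% after thinning to 2000 UMIs, so the gap in shares is not read as a difference. Beneath this, the Malat1-rich barcodes had a ratio of -0.64 (-1.15 to -0.10), with 25.5 and 39.9 CPM, and the Malat1-poor ones 0.50 (-0.29 to 1.35), with 17.0 and 12.1 CPM. The class was 49.8% Malat1-rich in the Cre plus library and 16.3% in the other, so the pooled value weighs these barcodes differently. BEC-like barcodes had 27 UMIs (6.05 CPM) and 12 UMIs (3.70 CPM), a ratio of 0.71 (-0.32 to 1.82). In stromal-like barcodes 78 and 35 UMIs (54.6 and 64.8 CPM) came from 1 barcode in each library. The Cre plus one held 1752 fibroblast and 2 pericyte marker UMIs, and the Cre minus one 1017 and 2. The same Cre plus barcode held 9 of the 11 C3 and all 12 C4b UMIs of its class. Macrophage-like barcodes had 30 and 14 UMIs, 23 of the 30 in 1 barcode. Melanoma-like barcodes had 4 and 0 UMIs. The order of Cd55 levels ran from those single stromal-like barcodes to LEC-like and Cre plus macrophage-like barcodes, whose interval (9.58 to 20.3 CPM) overlaps that of Cre minus LEC-like barcodes. The BEC-like levels and the Cre minus macrophage-like level between them follow, with overlapping intervals, and melanoma-like barcodes are at the bottom.

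Cd59a, which blocks the membrane attack complex, was higher in BEC-like than in LEC-like barcodes, the opposite order to Cd55. BEC-like barcodes had 112 UMIs (25.1 CPM) in Cre plus against 43 UMIs (13.3 CPM) in Cre minus, a log2 ratio of 0.92 (0.40 to 1.46) and a 1.89-fold difference. The carrying shares were 26.6% and 11.5%, and 4.84% (2.24 to 8.99) and 3.32% (1.44 to 6.44) after thinning, with overlapping intervals. The Malat1-rich ratio was 0.91 (0.36 to 1.501). The thinned ratio of 0.54 (-1.0023 to 2.12), from 9 and 8 UMIs, and the Malat1-poor ratio of 0.50 (-1.4958 to 2.37), from 5 and 7 UMIs, had intervals that include 0. LEC-like barcodes had 55 UMIs (3.15 CPM) and 12 UMIs (5.06 CPM), a ratio of -0.68 (-1.60 to 0.35). The ratio in LEC-like minus that in BEC-like barcodes was -1.60 (-2.67 to -0.44), of the same sign as that of Serping1, and among Malat1-rich barcodes -1.32 (-2.88 to 0.69). No single barcode of either endothelial class held more than 8 Cd59a UMIs. Melanoma-like barcodes had 335 UMIs (9.11 CPM) and 700 UMIs (12.02 CPM), a ratio of -0.40 (-0.59 to -0.21). Macrophage-like barcodes had 8 and 22 UMIs and stromal-like barcodes 16 and 4, with intervals of the ratio on both sides of 0. The Cre plus BEC-like interval (20.6 to 30.2 CPM) lay above that of Cre minus (9.60 to 17.9), which was next in the order of levels and overlapped that of Cre minus melanoma-like barcodes (11.15 to 12.95). Cre plus LEC-like barcodes had the lowest level.

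Of the other genes of the pathway, a list of 59 was taken: 27 activators, 13 regulators, 10 receptors and 9 genes of the contact and kinin systems that C1 inhibitor controls. In LEC-like barcodes 10 of the 59 had at least 50 UMIs. Of these 1 was at least 2-fold lower in Cre plus (Cfb) and 3 at least 2-fold higher (Plat, Colec12 and Clu), beside the 0.928% and 7.18% of all genes. The list's median log2 ratio was 0.16, and that of all genes with 50 UMIs 0.29. In BEC-like barcodes 9 had at least 50 UMIs, 0 were lower and 1 was higher (Cfb), beside 0.772% and 2.13%. The median was -0.05 for the list and 0.01 for all genes. No receptor of the list with 50 UMIs in an endothelial class was past 2-fold. With no replicates these counts had no test.

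Factor B, the protease of the alternative C3 convertase, is the activator that stood with Serping1. In BEC-like barcodes Cfb had 78 UMIs (17.5 CPM) in Cre plus against 6 UMIs (1.85 CPM) in Cre minus, a log2 ratio of 3.24 (2.05 to 4.73). The 78 were spread over 30 barcodes with at most 10 in 1, and 13 of these 30 also had a Serping1 UMI. In the whole class 27 of 218 barcodes (12.4%) had one. Those 27 were deeper, with a median of 26999 against 10124 UMIs, and the part of depth in the overlap was not tested. In LEC-like barcodes Cfb had 47 UMIs (2.70 CPM) and 14 UMIs (5.91 CPM), a ratio of -1.13 (-2.02 to -0.16). That direction turned when barcodes were thinned (1.36, -1.54 to 6.83, from 8 and 1 UMIs) and when barcodes with other cells' markers were left out (0.21, -2.60 to 3.67, from 4 and 2 UMIs). Without the 3 highest barcodes it was -0.28 (-1.54 to 1.26), so no direction of Cfb is read in LEC-like barcodes. Macrophage-like barcodes had most Cfb, 172 and 109 CPM. Cfb (ENSMUSG00000090231) lies on chromosome 17 from 34856374 to 34862518 on the minus strand, where Gm20547 overlaps it on the same strand.

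Among the genes of the list with most UMIs in their role, C1qb, a chain of the C1q recognition protein, had 2238 and 2239 CPM in macrophage-like barcodes. It had 18 UMIs in Cre plus against 20 in Cre minus in LEC-like barcodes, below the 50 asked for. Clu, the fluid-phase regulator clusterin, was 82.4 and 85.4 CPM in BEC-like barcodes. In LEC-like barcodes it was 7.40 and 3.38 CPM, from 129 and 8 UMIs. C1qbp, named for binding C1q but mainly a mitochondrial protein, was 113 and 112 CPM in LEC-like barcodes, and 76.1 and 76.2 CPM in the BEC-like ones. Plat, tissue plasminogen activator, a protease that C1 inhibitor can bind, was 101 and 46.4 CPM in LEC-like barcodes, a ratio of 1.12 (0.84 to 1.41). In BEC-like barcodes it was 45.2 and 64.2 CPM, a ratio of -0.50 (-0.79 to -0.22). Colec12, a collectin receptor, was 75.6 and 37.6 CPM in LEC-like barcodes, a ratio of 1.01 (0.70 to 1.34).

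**Figure D4:**
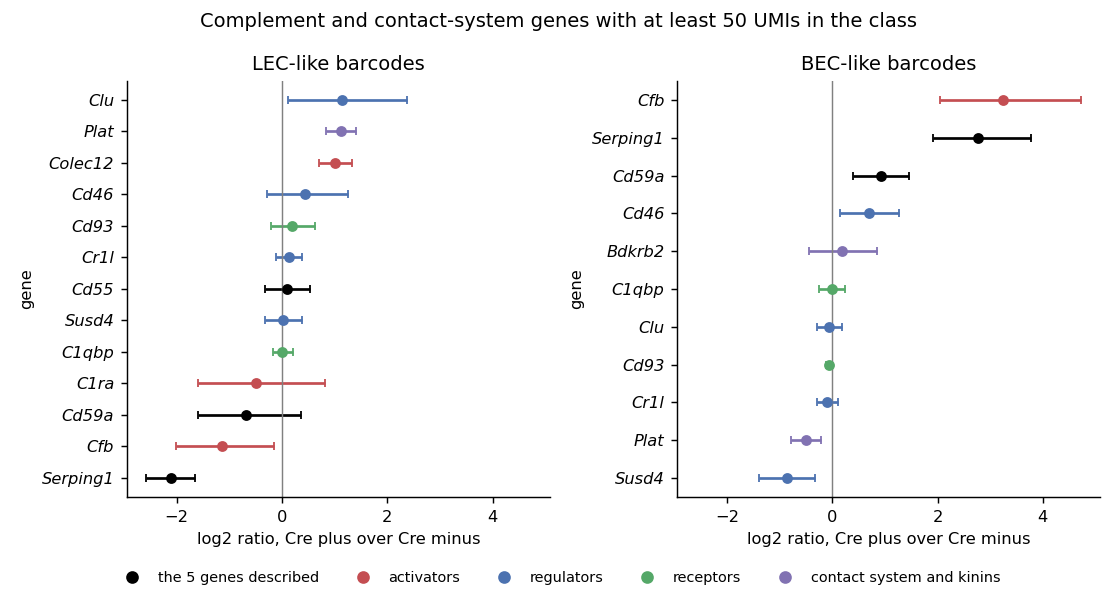
Log2 ratio of Cre plus over Cre minus (x axis, with exact 95% counting intervals) of the complement and contact-system genes with at least 50 UMIs in LEC-like (left) and BEC-like (right) barcodes, coloured by role. Serping1 is the lowest gene on the left at -2.11 and, after Cfb at 3.24, the second highest on the right at 2.77.

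In the other classes the list had 20 genes with 50 UMIs in melanoma-like barcodes, of which 5 were at least 2-fold lower in Cre plus and 0 higher, beside 0.544% and 0.715% of all genes. These were C1qa, C1qb, C1qc, Cd59b and Cr2. The C1q chains are macrophage products, and the macrophage and monocyte markers summed to 13.3 CPM (Cre plus) and 19.2 CPM (Cre minus) in melanoma-like barcodes, with 7 of 9 lower in Cre plus and none at 0. A single Cre minus barcode of 196360 UMIs held 347 macrophage marker UMIs, Mrc1 not counted, so the Cre minus sum rests in part on it. The part of macrophage RNA in the result was not tested. In macrophage-like barcodes 18 genes had 50 UMIs, 1 was lower (C2, -1.66) and 1 higher (C6, 1.44), beside 3.52% and 4.47%. In stromal-like barcodes 1 of 6 was lower (C1s1, -1.17) and 0 higher, beside 3.42% and 3.09%. C2 and C6 are components of the cascade and C1s1 a C1 protease.

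Within a class and library, the barcodes that carried a Serping1 UMI had more Gbp2, an interferon-inducible GTPase, than those without. Gbp2 was 93.3 CPM in the 60 carrying and 25.05 CPM in the 840 other LEC-like barcodes of Cre plus. In Cre minus it was 657 CPM in 28 carrying and 66.5 CPM in 248 other LEC-like barcodes. In Cre plus BEC-like barcodes it was 323 CPM in 27 and 58.4 CPM in 191, and in Cre minus 107 CPM in only 7 and 30.6 CPM in 245. Gbp2 was thus higher beside Serping1 in the 4 groups, those of Cre plus LEC-like barcodes included. In the Cre minus BEC-like group 1 barcode held 22 of the 29 Gbp2 UMIs of the carrying ones. Single carrying LEC-like barcodes of Cre minus held 66, 42, 38 and 33 of 253, so that level rests largely on few barcodes. Single carrying LEC-like barcodes of Cre plus held 45, 26 and 17 of 204. Among Malat1-poor LEC-like barcodes Gbp2 was 37.1 against 31.4 CPM in Cre plus, from 5 UMIs in the carrying ones, and 1175 against 88.2 CPM in Cre minus. Of the 196 Gbp2 UMIs behind the 1175 CPM, single barcodes held 66, 42 and 33. Malat1-poor BEC-like barcodes had only 2 carrying barcodes in each library. Of 3002 genes compared in the first 3 groups, the 10 with the highest lowest bound were Gbp2, Iigp1, Gbp6, Zbp1, H2-Q6, Igtp, H2-T23, Gbp7, H2-T22 and Irgm1. Gbp, Iigp1, Igtp and Irgm1 are interferon-inducible GTPases, Zbp1 is a nucleic acid sensor and the H2 genes encode MHC class I proteins. Carrying barcodes were deeper (median 33224 against 10068 UMIs in Cre plus LEC-like). The CPM sets both on the same total, but carrying and other barcodes were not matched for depth. Barcodes carrying Cd55, also deep in Cre plus LEC-like at 31496.5 UMIs, had 33.8 CPM of Gbp2 against 33.5 without. Those carrying Cd59a had 36.5 against 33.2. Among Cre minus LEC-like barcodes the values for Cd55 were 149 against 166 CPM. Within the Malat1-rich ones, however, Cd55-carrying barcodes had 139 against 27.0 CPM, at median depths of 20909 against 8145 UMIs, and Serping1-carrying ones 261 against 22.8 CPM, at 25330.5 against 14775 UMIs. Of the 57 Gbp2 UMIs behind the 261 CPM, 1 barcode held 38. The part of depth in the Gbp2 values was not tested in either library. The Serping1-carrying Malat1-rich LEC-like barcodes of Cre plus, at a median of 36076.5 UMIs against 28761.5, had 96.99 against 23.4 CPM. These intervals and ratios compare barcodes of 1 library and have no replicate check.

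**Figure D5:**
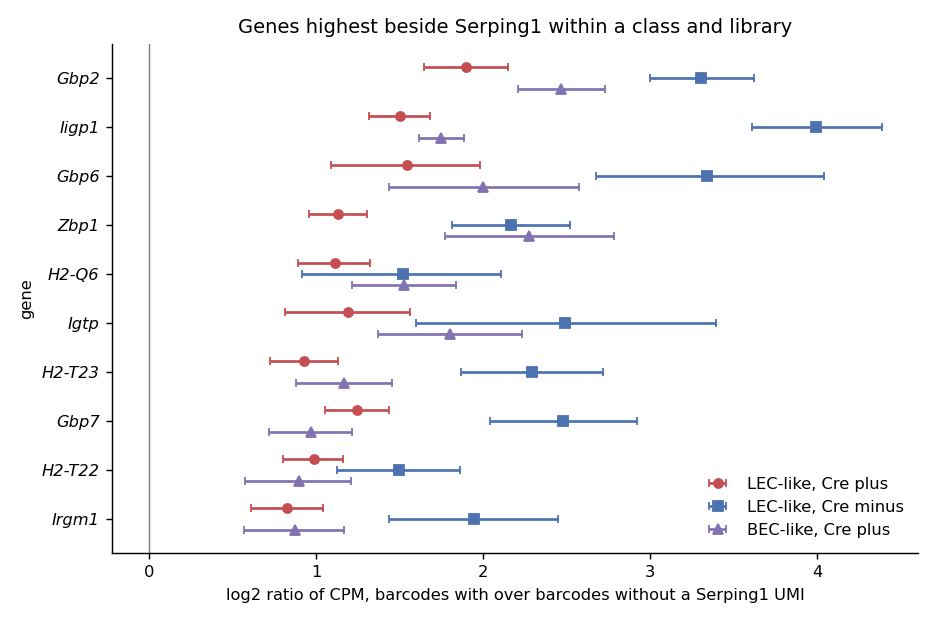
Log2 ratio of CPM between barcodes with and without a Serping1 UMI (x axis, with exact 95% counting intervals) for the 10 genes chosen by the highest lowest bound over LEC-like barcodes of both libraries and BEC-like barcodes of Cre plus. All points lie right of 0 by the way the genes were chosen, and Gbp2 reads 93.3 against 25.05, 657 against 66.5 and 323 against 58.4 CPM.

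In Cre plus BEC-like barcodes the pericyte markers summed to 1320 CPM in Serping1-carrying and 151 CPM in other barcodes. Once the barcode with most pericyte and fibroblast RNA was left out of each set, both marker lists together came to 30.4 CPM in carrying and 132.5 CPM in other barcodes. The share with at least 2 stromal marker UMIs was 18.5% and 24.6% there. In LEC-like barcodes it was 71.7% and 41.4% in Cre plus and 25% and 18.5% in Cre minus. This share depends on depth, and the carrying barcodes were deeper in both libraries. The pericyte level was lower in carrying LEC-like barcodes, 156 against 217 CPM in Cre plus and 67.5 against 144 CPM in Cre minus. The fibroblast level was 1.37 against 5.31 CPM in Cre plus and 33.8 against 0.504 CPM in Cre minus. A single carrying Cre minus barcode held 11 fibroblast marker UMIs, so the 33.8 CPM rests largely on it. Without the top barcode of each set, both lists together were 72.7 against 115 CPM in Cre minus LEC-like barcodes.

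The genes whose pattern over the 10 class and library levels was most like each gene were found by Pearson's r of log2(CPM + 1), over 5 classes. For Serping1 these were Ndufa4l2 (0.944), Arntl2 (0.933) and E4f1 (0.933). For C3 they were Saa3 (0.982), Ripor2 (0.973) and Aldh1b1 (0.967), and for C4b Ptprj (0.991), Tnfsf9 (0.987) and Soat1 (0.976). For Cd55 they were Rasgrp2 (0.989), Fbn1 (0.984) and Pir (0.980), and for Cd59a Ablim1 (0.915), Cyp2d22 (0.900) and Epha4 (0.896). The 10 points share 2 libraries and the classes' depths, and the genes are a description of likeness only.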

How the data were processed

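The authors deposited whole-number UMI counts of 32285 genes for every barcode, without normalization. Reads had been processed with Cell Ranger 7.0.0 on mm10, per the submitters' processing notes, while the annotation is not stated there. The 5 genes were found by symbol, each with 1 row. Coordinates come from GENCODE M21 on mm10.

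The 5 genes, the lists, markers and comparisons were chosen with earlier results of these data known. Genes named singly are the 5 genes, up to 4 of the complement list per endothelial class and direction that are past 2-fold with an interval off 0 and at least 50 UMIs, the gene of each role with most UMIs, and the 3 genes most like each of the 5. Cfb was followed further, and the genes of other classes, the 15 of opposite direction and the 10 highest in carrying barcodes were named, after their values were seen.

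Barcodes were kept from 500 genes upward if mitochondrial UMIs were under 10% (555 and 647 barcodes had fewer genes, 468 and 733 more mitochondrial UMIs). No doublet caller was run, and mixed barcodes stayed in. Both libraries were clustered together in scanpy 1.11.5 with leidenalg 0.10.2 (2000 variable genes, 1980 without the complement list, 30 principal components, 15 neighbours, resolution 1.0), giving 21 clusters, named from fixed markers. T and NK-like and platelet-like barcodes, under 20 in each library, and the unnamed clusters were not used.

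In each library the UMIs of a class were added up and expressed as CPM of the class total. Ratios have exact conditional binomial intervals, shares exact Clopper-Pearson intervals and levels exact Poisson intervals, and the difference between classes combines 2 intervals by the square-and-add method (scipy 1.17.1). The interval code was tested on simulated data. Alternatives were other barcode filters, resolutions, marker gates, scalings, thinning, Malat1-rich or Malat1-poor barcodes alone, cycling barcodes, other cells' markers and single barcodes left out. With 1 library per genotype no test, p-value or replicate error is possible.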

Additional observations from a re-analysis of the deposited data

Results flagged for a closer look

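The differences between the libraries pointed opposite ways in LEC-like and BEC-like barcodes, with both intervals off 0, for 3 genes of the complement and contact lists with at least 50 UMIs in both classes. The log2 ratio in LEC-like minus that in BEC-like barcodes was -4.89 for Serping1, -4.37 for Cfb and 1.62 for Plat. Plat was the gene that was higher in Cre plus LEC-like barcodes and lower in Cre plus BEC-like barcodes. These differences were not tested, since each genotype has 1 library, and the Cfb value changes direction in LEC-like barcodes with the processing. The Plat ratios were not computed under the alternatives, nor for Malat1-rich and Malat1-poor barcodes apart.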

How the results depend on the processing

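No paired analysis was possible because each genotype has 1 library, and for the same reason no replicate could be left out. The log2 ratio of Serping1 kept its sign under the 17 alternatives, from -2.66 to -1.07 in LEC-like and from 0.99 to 3.84 in BEC-like barcodes, and the difference between the classes ran from -5.88 to -3.64. It moved past the counting interval among Malat1-poor barcodes (-2.66 in LEC-like, 0.99 in BEC-like with 2 UMIs a library, difference -3.64) and without barcodes holding other cells' markers (-1.07 and 3.83, and 3.84 in BEC-like with Mrc1 not counted). Cfb in LEC-like barcodes reversed when thinned (1.36), without other cells' markers (0.21) and with Mrc1 not counted (0.35). The cause was not tested. Cd59a in BEC-like barcodes stayed between 0.50 and 1.30, with intervals including 0 when thinned or among Malat1-poor barcodes, and Cd55 in LEC-like barcodes ran from -0.64 to 1.11, on both sides of 0. Complement list genes past the fold in LEC-like barcodes were 5 lower with at least 20 UMIs (1.77% of all genes) and 0 with at least 200 (0.368%). In BEC-like barcodes 0 were higher with at least 200 UMIs (0.986%), and 2 higher (6.50%) and 1 lower (4.61%) at 1.5-fold. Fewer or more genes enter at these limits. Thinning gave no value for Cd55 or Cfb in BEC-like barcodes, nor did the Malat1-poor barcodes for Cd55 there, because a library held no UMI. Depth limits C3 and C4b in the endothelial classes, where each library held 0 to 5 UMIs.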

Other observations

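The barcodes that failed the filters, 709 in Cre plus and 950 in Cre minus, held few UMIs of these genes. Serping1 had 6 and 9 UMIs there (1.81 and 1.35 CPM) of 473 and 230 in all barcodes. C4b had 40 and 69 (12.1 and 10.4 CPM) of 830 and 1595, the most of the 5 genes.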
